A study of Mus musculus with 7 samples.

Results

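The genes of bile acid synthesis, conjugation and uptake were followed across mouse embryonic fibroblasts (MEF), induced hepatocyte-like cells made from MEF (iHep), and hepatocytes from adult mouse livers. The set was the 10 genes Cyp7a1, Cyp7b1, Cyp8b1, Cyp27a1, Acox2, Slc27a5, Slc27a2, Baat, Slc10a1 and Abcb11, out of 27583 genes and unnamed probes on the array. A probe belonged to the set if the gene name in the scanner file, or the current symbol of its accession, was one of these names, which gave 14 probes. All 10 genes were on the array. They were taken by name and not by a cut on expression values, but with earlier results of these data known.

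Expression was read on 7 Agilent arrays of 1 colour (Cy3), each holding the total RNA of 1 sample. The 3 iHep arrays held 3 types of iHep cells, labelled 4α1, 4α2 and 4α3 and called types 1, 2 and 3 below. The labels do not say what the last digit means. The hepatocyte group was 1 array. The 3 MEF arrays were labelled as separate preparations from embryos at 13.5 days post coitum. All 3 groups were C57BL/6. iHep cells are known as fibroblasts that were given liver transcription factors, Hnf4a with a Foxa factor in this study. Each iHep type had 1 array, so its spread mixes replicate error with differences between types, and the hepatocyte array has no replicate check. The adult hepatocytes and the embryonic MEF differ in age as well as in cell type.

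Bile acids are made in hepatocytes from cholesterol. The classical route starts with Cyp7a1, its rate-limiting enzyme, and Cyp8b1 then directs the product towards cholic acid, while the alternative route starts with Cyp27a1, which oxidises the sterol side chain, and continues with Cyp7b1. Peroxisomes shorten the side chain, a step in which Acox2 is the oxidase for bile acid intermediates, acyl-CoA synthetases attach coenzyme A, and Baat joins the bile acid to taurine or glycine. Slc10a1 (NTCP) takes bile salts up from the blood and Abcb11 (the bile salt export pump) secretes them into bile.

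The promoter windows of 2 members that were detected on the hepatocyte array only, Cyp8b1 and Slc10a1, and of 2 members that were higher in iHep than in MEF, Cyp27a1 and Slc27a2, are shown here because the levels below divide these pairs. Each runs 5′ to 3′ on the strand of the gene, from 250 bases before to 50 bases after the annotated start, from RefSeq on build GRCm38.p6. Capitals mark matches, on either strand, to the motifs searched. The windows lie at chr9:121916256-121916555 on the minus strand for Cyp8b1, chr12:80968656-80968955 on the minus strand for Slc10a1 (the first of its 2 windows), chr1:74713285-74713584 on the plus strand for Cyp27a1 and chr2:126552774-126553073 on the plus strand for Slc27a2.
Cyp8b1: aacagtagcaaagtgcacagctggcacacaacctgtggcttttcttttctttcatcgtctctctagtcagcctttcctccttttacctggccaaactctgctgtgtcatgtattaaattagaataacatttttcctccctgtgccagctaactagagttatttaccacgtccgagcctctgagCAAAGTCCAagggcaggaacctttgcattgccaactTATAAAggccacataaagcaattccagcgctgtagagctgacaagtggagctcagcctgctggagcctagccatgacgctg
Slc10a1: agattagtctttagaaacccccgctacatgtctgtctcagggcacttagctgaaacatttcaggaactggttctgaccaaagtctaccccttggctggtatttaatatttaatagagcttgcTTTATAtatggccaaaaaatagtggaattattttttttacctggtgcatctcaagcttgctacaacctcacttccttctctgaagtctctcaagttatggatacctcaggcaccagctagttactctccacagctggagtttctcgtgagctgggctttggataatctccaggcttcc
Cyp27a1: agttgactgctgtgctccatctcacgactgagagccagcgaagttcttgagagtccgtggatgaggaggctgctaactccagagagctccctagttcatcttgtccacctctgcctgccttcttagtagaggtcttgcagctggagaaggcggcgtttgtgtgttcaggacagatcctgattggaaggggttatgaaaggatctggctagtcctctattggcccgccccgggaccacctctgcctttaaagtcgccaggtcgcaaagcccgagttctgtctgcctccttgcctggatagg
Slc27a2: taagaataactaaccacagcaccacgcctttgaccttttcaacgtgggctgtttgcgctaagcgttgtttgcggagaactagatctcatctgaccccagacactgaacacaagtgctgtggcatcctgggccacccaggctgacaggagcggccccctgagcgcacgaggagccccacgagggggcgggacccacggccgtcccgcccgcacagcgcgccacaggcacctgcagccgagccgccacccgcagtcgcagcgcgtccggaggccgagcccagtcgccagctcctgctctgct

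RefSeq promoter windows were matched by symbol for 6 of the 10 members (8 windows). The motifs searched on both strands were an HNF4 site (CAAAGTCCA), a forkhead site (TGTTTAC), an NR5A2 site (CAAGGTCA), a CEBP palindrome (TTGCGCAA) and a TATA box (TATAAA). The Cyp8b1 window held the HNF4 letters at -67 and the TATA letters at -31 from the annotated start. The Slc10a1 window held the TATA letters on the opposite strand at -128. These letters were in 0.475% (HNF4) and 13.6% (TATA box) of 32851 mouse promoter windows, and the other 3 motifs, found in 3.65%, 1.56% and 0.183% of windows (forkhead, NR5A2 and CEBP), were in none of the 8. The windows also differed in base composition. The Slc27a2 window was 65.3% G or C with 25 CpG, the Cyp27a1 window was 55.3% with 10 CpG, the Cyp8b1 window was 47.3% with 5 CpG and the Slc10a1 window was 43.0% with 2 CpG, against medians of 52.7% and 7 CpG over all windows. This did not divide the members as their levels did, since the 2 windows of Acox2, also higher in iHep than in MEF, held 4 and 2 CpG and the other Slc10a1 window held 6.

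Signal at the 75th percentile was between 608 on the hepatocyte array and 1484 on MEF 2, and 60.2% to 68.7% of probes were flagged well above background by the scanner software, which is called detected below. The spread between MEF 2 and MEF 3 was 0.640 to 0.995 times that of spots of the same probe within an array, by class of signal, whereas between MEF 1 and MEF 2 it was 2.03 to 4.58 times. Since they differed by less than this noise, the mean of MEF 2 and MEF 3 entered as 1 sample, so n = 2 for MEF, 3 for iHep and 1 for hepatocytes. MEF 2 and MEF 3 shared slide 2 and scan day 2, and MEF 1 and the 3 iHep arrays shared slide 1 and scan day 1. Sample likeness and a shared slide and scan day therefore cannot be told apart for MEF 2 and MEF 3. Of the 2 MEF samples, 1 also differed from iHep in slide and scan day. Of 9 hepatocyte markers, 6 to 7 were detected on the iHep arrays, 9 on the hepatocyte array and 2 on each MEF array. Of 8 fibroblast markers, 8 were detected on every iHep array, 7 on the hepatocyte array and 8 on every MEF array. All 6 macrophage and all 5 endothelial markers were also detected on the hepatocyte array (summed linear levels of 6.197 and 5.921), beside 2 to 3 macrophage markers and 1 endothelial marker on the iHep arrays, and 5 and 3 on the MEF arrays (sums of 2.72 to 4.47 and 0.896 to 1.54). Of 4 stellate markers, 1 to 2 were detected on the iHep arrays, 4 on the hepatocyte array and 3 on the MEF arrays. Levels are given as log2 of the signal with each array's 75th percentile set to 0, and changes as log2 ± SE from limma with p-values adjusted by Benjamini-Hochberg over all 19135 tested genes. The comparisons share samples, MEF or hepatocyte or iHep, and are not independent of each other. A fold against a group with no detected array is a lower bound, set against the lowest detected signal of its arrays or the probe's own where that is higher. In bulk RNA, fewer cells of a type and less RNA per cell cannot be told apart.

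**Figure D1:**
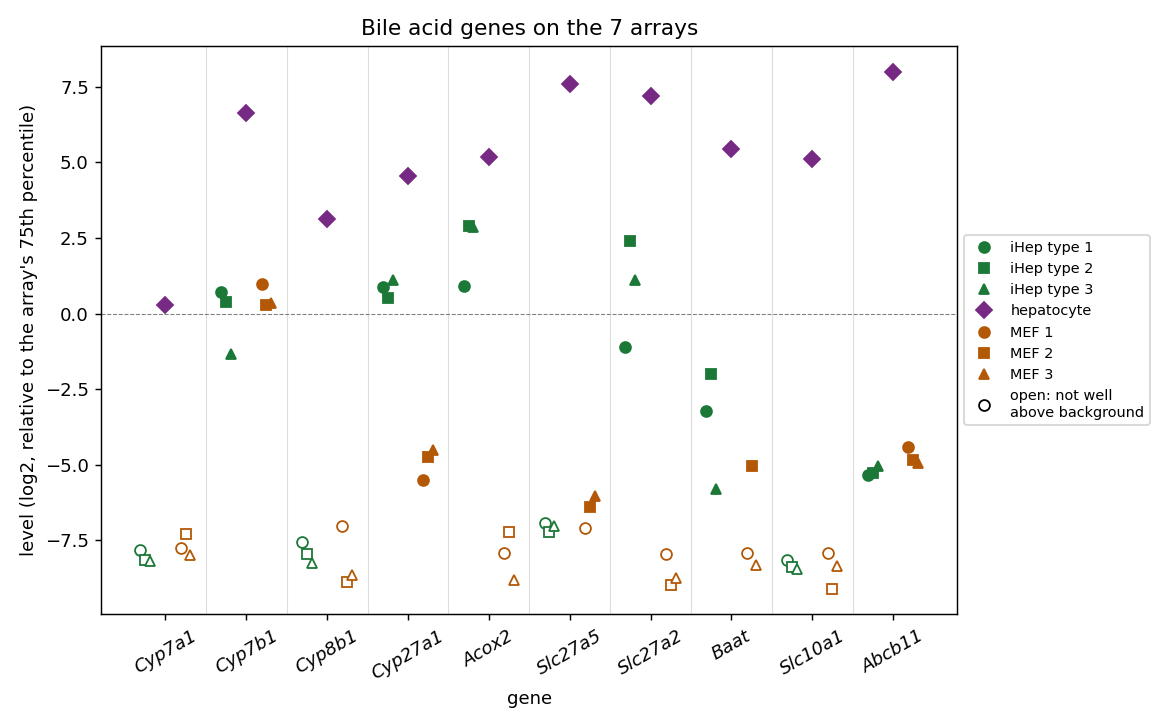
Levels of the 10 genes on the 7 arrays, in log2 relative to each array's 75th percentile, with iHep (green), hepatocyte (purple) and MEF (brown) arrays side by side for each gene and open symbols for undetected probes. The hepatocyte array was highest for every gene, and the iHep arrays lay above every MEF array for Cyp27a1, Acox2 and Slc27a2.

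In iHep cells Cyp27a1, the first enzyme of the alternative route, the oxidase Acox2 and the acyl-CoA synthetase Slc27a2 were higher than in MEF, and both classical-route enzymes and the uptake carrier were not detected. Cyp7b1 and Abcb11 were detected on all 7 arrays without a call, Baat was detected on every iHep array without a call, and Cyp7a1, Cyp8b1, Slc27a5 and Slc10a1 were detected on no iHep array. All 10 were called higher in hepatocytes than in MEF, against 28.4% of all tested genes, and all 10 lower in iHep than in hepatocytes, against 27.1%. For Cyp7a1, Cyp8b1, Slc27a5 and Slc10a1, which were tested only because the hepatocyte array detected them, these calls follow from the filter on dim probes. The number of members detected was 6 on each iHep array, 10 on the hepatocyte array, and 3, 5 and 4 on MEF 1, 2 and 3. Of all genes, 60.1% to 62.3% were detected on the iHep arrays, 62.3% on the hepatocyte array and 59.4% to 67.3% on the MEF arrays.

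The question of the first comparison, iHep against MEF, is which of these genes differed between the induced cells and the cells they came from. Of the 10 members, 3 rose and 0 fell, where 10.1% of all tested genes were called higher and 13.2% lower. All 10 passed the filter on dim probes, but Cyp7a1, Cyp8b1, Slc27a5 and Slc10a1 passed through the hepatocyte array only. The median change of all tested genes was -0.04.

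Of the enzymes of the synthesis pathway, Cyp27a1 had levels of 0.86, 0.50 and 1.12 in iHep types 1, 2 and 3 and -5.50, -4.75 and -4.52 in MEF 1, 2 and 3. All iHep arrays were above all MEF arrays, and the probe was detected on all of them. On MEF 1 it was near the lowest detected level of that array, -5.73. Cyp27a1 was 59.6-fold higher in iHep (5.90 ± 0.35, limma adjusted p = 0.00107), with the types 5.57 to 6.19 above the MEF mean. With background corrected by normexp in place of the processed signal, the change was 4.03 and still called. Its probe lies at chr1:74668836-74668895 (build mm8, per the file headers; where exons and UTRs lie on that build was not analysed here).

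Acox2 had levels of 0.91, 2.89 and 2.85 in iHep types 1, 2 and 3, and was not detected on any MEF array. Types 2 and 3 were close together and type 1 was lower by about 1.99 in log2. Acox2 was at least 355-fold higher in iHep than in MEF (adjusted p = 0.00143 by limma). With normexp, which lifts dim signals by an offset, the change was 5.91, smaller than that bound and still called. The probe's mm8 position spans chr14:7019530-7023919, which is longer than the probe itself.

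Cyp7b1, the oxysterol hydroxylase of the alternative route, had levels of 0.71, 0.39 and -1.33 in iHep types 1, 2 and 3 and 0.97, 0.28 and 0.35 in MEF 1, 2 and 3. The groups overlapped and iHep type 3 was the lowest array. The difference was not called (-0.72 ± 0.68, limma adjusted p = 0.489), and without type 3 it was -0.09. Cyp7a1 and Cyp8b1 were not detected on any iHep or MEF array, on either of the 2 Cyp7a1 probes, so no fold between these groups is given.

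Of the genes of activation and conjugation, Slc27a2, an acyl-CoA synthetase for very-long-chain fatty acids and bile acid intermediates, had levels of -1.11, 2.40 and 1.12 in iHep types 1, 2 and 3. No MEF array detected it. Slc27a2 was at least 133-fold higher in iHep (limma adjusted p = 0.00599), although within slide 1, where MEF 1 is the lone MEF array, the adjusted p was 0.0523 at a change of 8.76. With normexp the change was 4.54, again smaller than the bound and called. Its position is chr2:126279255-126279314 on mm8. A second Slc27a2 probe was detected on types 2 and 3 and in hepatocytes, with the same order of the types (2, then 3, then 1), and another probe was detected on no array.

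Baat had levels of -3.21, -1.98 and -5.81 in iHep types 1, 2 and 3, and -7.93, -5.05 and -8.33 in MEF 1, 2 and 3, where MEF 2 alone was detected. The iHep type 3 value lay below MEF 2, so the groups overlapped. The difference of 3.64 ± 1.19 was not called (limma adjusted p = 0.0894). It was called without MEF 2 (adjusted p = 0.0495) or without iHep type 3 (adjusted p = 0.0169). A second Baat probe was detected on iHep types 1 and 2 and in hepatocytes, and on no MEF array. Slc27a5, the bile acyl-CoA synthetase that reactivates returning bile acids, was detected on no iHep array and on MEF 2 and MEF 3, at levels of -6.41 and -6.03, where the lowest detected level on those arrays was -6.81 and -6.75.

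Of the transporters, Abcb11 was detected on every array, at -5.34, -5.28 and -5.05 in iHep types 1, 2 and 3 and -4.42, -4.84 and -4.93 in MEF 1, 2 and 3. Every iHep array was below every MEF array, but the difference of -0.56 ± 0.23 was not called (limma adjusted p = 0.143). Slc10a1 was not detected on any iHep or MEF array, with levels of -8.44 to -8.14 in iHep and -9.09 to -7.92 in MEF.

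**Figure D2:**
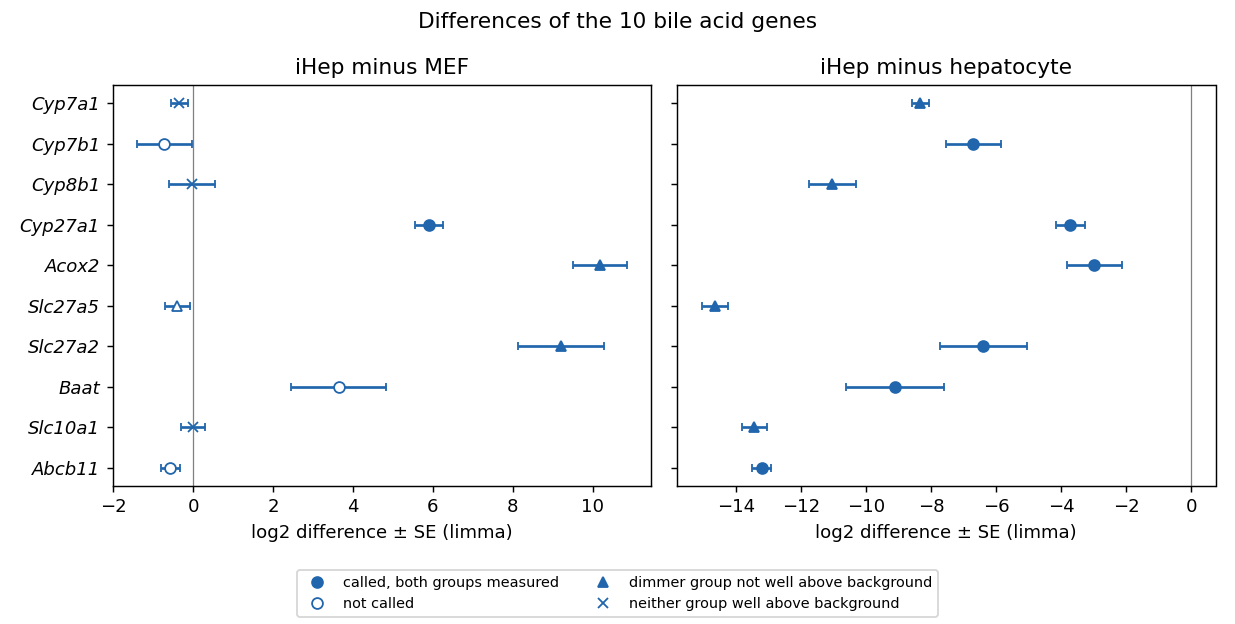
Log2 differences of the 10 genes with their standard errors from limma, iHep minus MEF on the left and iHep minus hepatocyte on the right. Filled symbols passed an adjusted p under 0.05, triangles mark genes whose dimmer group was not well above background, and crosses mark genes detected in neither group. Cyp27a1, Acox2 and Slc27a2 lie to the right of 0 on the left panel, and all 10 lie to the left of 0 on the right panel.

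The hepatocyte array was compared with MEF to show the level a liver cell reaches on the same array design. All 10 members were called higher and 0 lower, against 28.4% and 25.1% of tested genes. For the 4 that passed the filter through the hepatocyte array only, this follows from the filter. Slc10a1 had a level of 5.12 in hepatocytes and was at least 2651-fold above MEF, and Cyp8b1 had a level of 3.12 and was at least 665-fold above MEF. Cyp7a1 had a level of 0.28 and was at least 92.7-fold above MEF, on the probe with the higher mean over the 7 arrays. Its second probe, also detected in hepatocytes alone, had a level of 2.52 there and a change of 10.68, where the first had 7.98.

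Slc27a5 had a level of 7.61 in hepatocytes and -7.10, -6.41 and -6.03 in MEF 1, 2 and 3, of which MEF 1 was undetected. Its difference of 14.27 therefore rests on MEF values at or near background. Among the members detected on every MEF array, Abcb11 had a level of 7.997 in hepatocytes and was 6442-fold higher (12.65 ± 0.31). Cyp27a1 was 784-fold higher (9.61 ± 0.47) and Cyp7b1 63.1-fold higher (5.98 ± 0.91, limma adjusted p = 0.00505). The MEF 1 level of Cyp27a1 was -5.50, where the lowest detected level on that array was -5.73. Abcb11 was also dim in MEF, at -4.42, -4.84 and -4.93 in MEF 1, 2 and 3. The lowest detected levels of those arrays were -5.73, -6.81 and -6.75. Baat had a difference of 12.76 ± 1.60, with only MEF 2 detected. Slc27a2 and Acox2 were at least 11180-fold and 2794-fold higher. The hepatocyte array is alone on its slide, so slide and cell type cannot be told apart, and it was scanned on the same day as slide 1. Against MEF 1 alone, scanned that day, all 10 were again called higher, with the spread then taken from the iHep arrays.

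The last comparison, iHep against hepatocytes, asks how far the induced cells were from the adult level. All 10 members were lower in iHep and 0 higher, against 27.1% and 22.1% of tested genes. The gap was least for Acox2 and Cyp27a1 and was widest for Slc27a5, at least 12930-fold, among the fitted folds and bounds. For the 4 members undetected in iHep the difference again follows from the filter. Acox2 was 7.86-fold lower (-2.97 ± 0.85, limma adjusted p = 0.0383), and that call was lost with quantile normalization (adjusted p = 0.0924), with the authors' value table (0.0935) and without MEF 1 (0.0775). Cyp27a1 was 13.2-fold lower (-3.72 ± 0.44, adjusted p = 0.00273), Slc27a2 83.8-fold lower (-6.39 ± 1.35) and Cyp7b1 104-fold lower (-6.70 ± 0.86). Baat was 554-fold lower (-9.11 ± 1.51) and Abcb11 9523-fold lower (-13.22 ± 0.29). Abcb11 levels in iHep were -5.34 to -5.05, near the lowest detected levels of those arrays, -6.16 to -5.88. Cyp7a1, undetected in iHep, was at least 80.5-fold lower, Cyp8b1 at least 577-fold and Slc10a1 at least 2300-fold.

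The 3 iHep types did not order the genes alike. Relative to the hepatocyte level, Cyp27a1 stood at 7.79%, 6.07% and 9.31% in types 1, 2 and 3, and Acox2 at 5.13%, 20.3% and 19.7%. Slc27a2 stood at 0.317%, 3.60% and 1.49%, and Baat at 0.247%, 0.581% and 0.0409%. Cyp7b1 stood at 1.66%, 1.33% and 0.405%. Type 2 was highest for Acox2, Slc27a2 and Baat, type 1 for Cyp7b1 and type 3 for Cyp27a1. The highest and lowest types were 14.2-fold apart for Baat, 11.4-fold for Slc27a2, 4.10-fold for Cyp7b1, 3.96-fold for Acox2 and 1.53-fold for Cyp27a1. The Baat range rests on a type 3 level of -5.81, near the lowest detected level of that array, -6.16. The median range between types was 0.50 in log2 over 15829 genes detected on all 3 iHep arrays. With 1 array per type, differences between types were not tested.

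**Figure D3:**
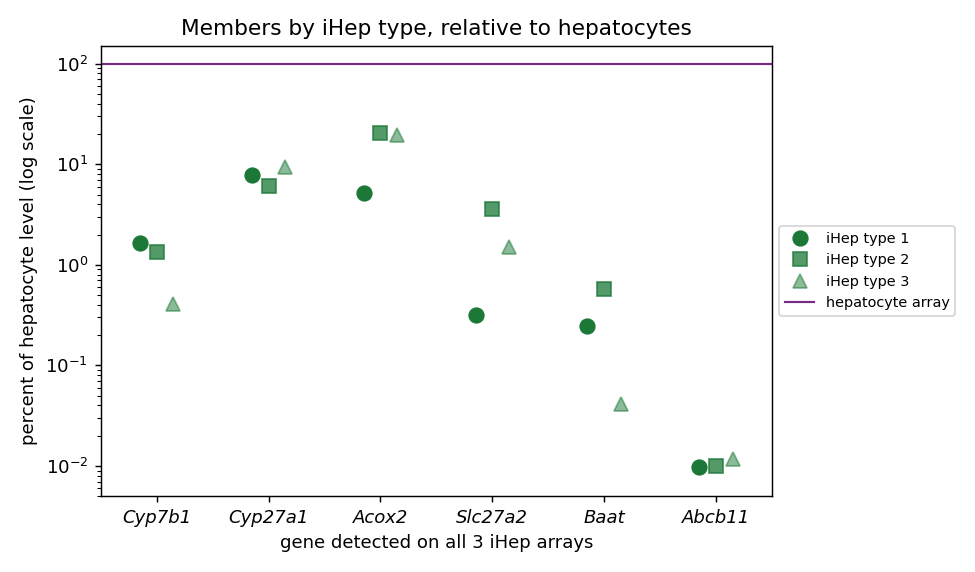
Level of each member detected on all 3 iHep arrays, as a percentage of the hepatocyte level (log axis), with 1 symbol per iHep type. Acox2 in types 2 and 3 came nearest to the hepatocyte array at 20.3% and 19.7%, and Abcb11 stayed near 0.01%.

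The hepatocyte marker list was not high to the same extent in all types. Its summed linear level was 252, 394 and 52.3 in iHep types 1, 2 and 3, 2203 in hepatocytes and at most 0.184 in MEF. Alb (levels of 6.46, 7.92 and -0.21 in types 1, 2 and 3) and Apoa1 (7.34, 7.25 and 5.66) have most of the iHep sums. Of the 9 hepatocyte markers tested, 4 (Alb, Ttr, Apoa1 and Apoc3) rose in iHep against MEF and 0 fell. Tat, Tdo2, G6pc, Cps1 and Cyp2e1 were not called, and Tdo2 and Cyp2e1 were undetected in iHep. Summed fibroblast markers were 149, 149 and 52.2 in types 1, 2 and 3, 11.7 in hepatocytes and 793 to 828 in MEF, and summed gut epithelium markers (4 to 5 of 6 detected in iHep) were 142, 126 and 323 in types 1, 2 and 3, 8.29 in hepatocytes and 0.213 to 0.225 in MEF. Summed bile duct markers were 181 to 224 in iHep (5 to 6 of 6 detected), 4.71 in hepatocytes (5 detected) and 249 to 313 in MEF (4 to 5 detected). Gene by gene, 4 of the 5 tested rose in iHep against MEF, Krt7 47.2-fold, Krt19 53.0-fold, Sox9 2.83-fold and Epcam at least 173-fold, and Spp1, which has most of the MEF sum, fell. The ileal bile acid binding protein Fabp6 was undetected on all iHep arrays and in hepatocytes, and was detected on MEF 2 alone. Whether such cells contributed to the member levels was not tested.

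Beyond the members, 15 other enzymes of bile acid synthesis and conjugation were tested in iHep against MEF, of which 5 rose and 0 fell (median change 0.96, or 0.54 with bounded and undetected genes at their bounds). For this list and those below, 10.1% of all tested genes rose and 13.2% fell in iHep against MEF. The shares were 28.4% and 25.1% in hepatocytes against MEF, and 22.1% and 27.1% in iHep against hepatocytes. Acnat1, an acyltransferase related to Baat, was at least 55.7-fold higher, with levels of -0.40, -0.59 and -0.39 in iHep types 1, 2 and 3 and undetected in MEF. Cyp2c70, which makes the muricholic acids of mice, was 23.6-fold higher, Cyp39a1, an oxysterol hydroxylase, 2.90-fold, Ephx1 2.37-fold and the peroxisomal thioesterase Acot8 2.03-fold. In hepatocytes 13 rose and 1 fell against MEF (median 4.31, against 0.14 over all tested genes), and in iHep 1 rose and 13 fell against hepatocytes (median -4.20, against -0.17). The exception in both was Ch25h, a cholesterol hydroxylase that makes an oxysterol, detected on every iHep and MEF array and not on the hepatocyte array. In hepatocytes against MEF, Acnat1 was at least 1253-fold and Cyp2c70 1625-fold higher. Akr1c6, an aldo-keto reductase abundant in liver, was at least 35040-fold higher in hepatocytes than in MEF and was undetected in iHep.

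Of 15 other bile acid and bile lipid transporters, 5 rose and 1 fell in iHep against MEF (median 0.74, or 0.44 with bounds), beside 10.1% and 13.2% of all tested genes. Abcc3, a basolateral export pump, was 33.3-fold higher at 2.72, 3.80 and 3.18 in iHep types 1, 2 and 3 and -2.49, -1.16 and -1.15 in MEF 1, 2 and 3. The uptake carrier Slco2b1 rose by 5.39 ± 0.97, with MEF 2 the one MEF array that detected it. The flippase Atp8b1 was 12.2-fold higher, the exporter Abcc4 11.6-fold and the phosphatidylcholine exporter Abcb4 7.41-fold. Abcg2, an efflux pump, was the gene that fell, 2.37-fold lower. In hepatocytes 13 rose and 1 (Abcc4) fell against MEF, with a median of 7.33 (7.31 with bounds). Against hepatocytes, iHep had Abcc4 30.8-fold higher, the 1 transporter of the 15 that was called higher, while 12 were called lower. The hepatocyte carriers Slco1b2 and Abcc2, the sinusoidal uptake and canalicular export genes, were undetected on every iHep array. Slco1b2 had a difference of 13.48 between hepatocytes and MEF, where 2 of 3 arrays detected it, and Abcc2 at least 1441-fold higher. Slco2b1 had a level of 5.44 in hepatocytes, a difference of 12.57 from MEF.

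Of 17 regulators of bile acid genes, 7 rose and 1 fell in iHep against MEF, 16 rose and 0 fell in hepatocytes against MEF, and 1 rose and 13 fell in iHep against hepatocytes (medians 1.94, 7.98 and -5.31, the 7.98 being 7.37 with bounds). Over all tested genes 10.1% rose and 13.2% fell in iHep against MEF. Vdr was the one regulator higher in iHep than in hepatocytes, 13.3-fold. Hnf4a, a nuclear receptor of liver genes, had levels of -0.55, -2.59 and 1.56 in iHep types 1, 2 and 3 on its brightest probe, which was undetected in MEF, and was at least 53.2-fold higher on it. Its change on that probe was 7.80, and another probe was close at 7.39. The third probe had a smaller change of 1.80 and was detected on MEF 2 and MEF 3 too. Whether any of these Hnf4a probes reads the introduced gene was not tested. The coactivator Ppargc1a was 28.4-fold higher in iHep than in MEF. Nr1i2 (the pregnane X receptor) rose by 7.37 ± 0.84, but of the MEF arrays MEF 2 alone detected it. Hnf4a was at least 1799-fold higher in hepatocytes than in MEF. Nr1h4 (FXR, the bile acid receptor) was at -1.58 in iHep type 1 and undetected in types 2 and 3, with 4.82 in hepatocytes and, in MEF, detection on MEF 2 alone. Its target Nr0b2 (SHP) and Nr5a2 (LRH-1) were detected on the hepatocyte array only. Fgfr4, the receptor through which intestinal Fgf15 lowers Cyp7a1, fell in iHep, at 6.85-fold below MEF, and Fgf15 was detected on no array. Nr1h4, Nr0b2, Nr5a2, Fgf15, Fabp6 and the lone exceptions of the lists were named after their values were seen.

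**Figure D4:**
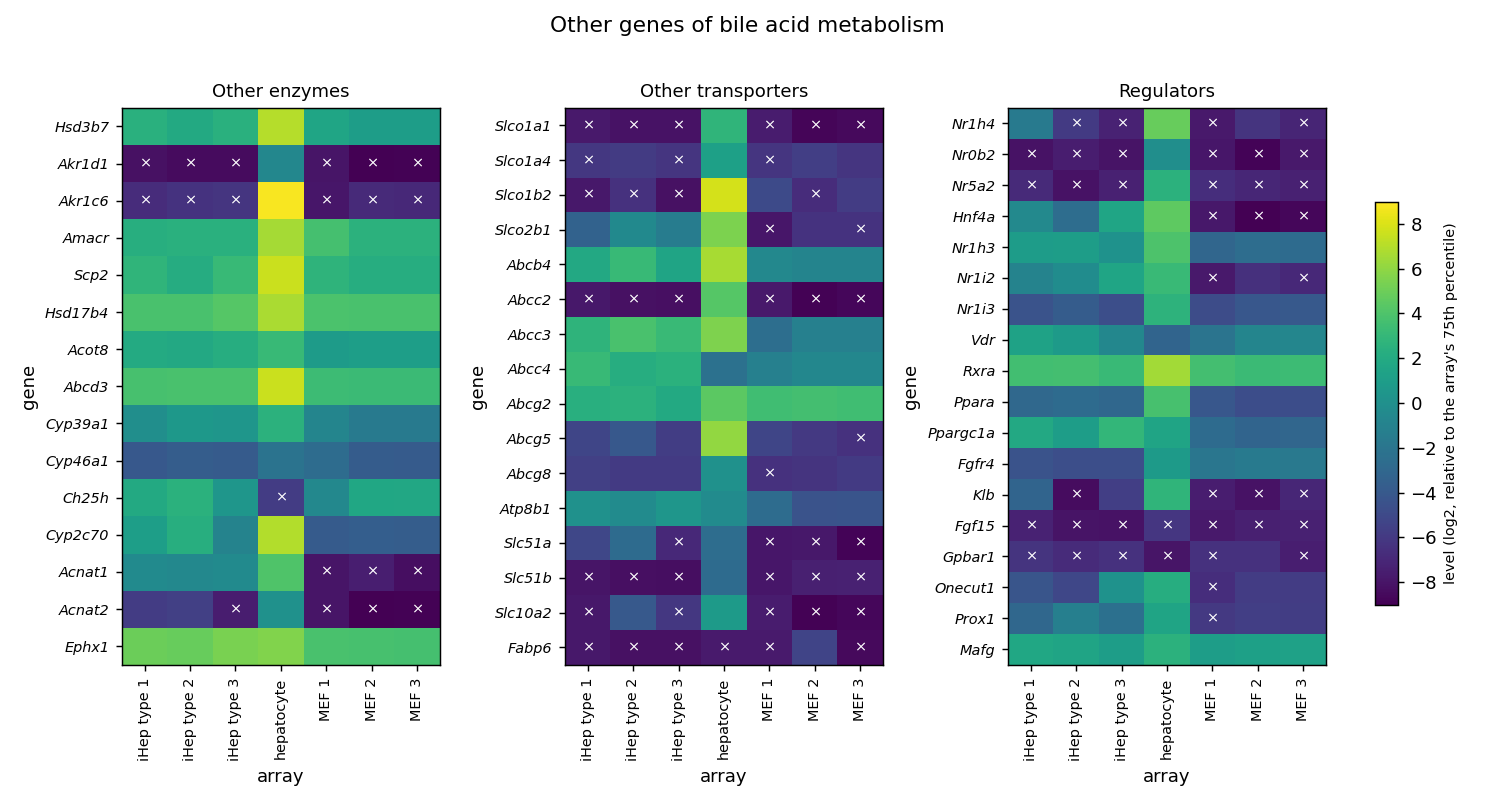
Levels of the other enzymes, the other transporters and 18 of the regulators on the 7 arrays (colour, log2 relative to each array's 75th percentile), with a white cross on arrays that did not detect the gene's brightest probe. The hepatocyte column is bright for most genes, and the probes shown for Hnf4a and Acnat1 were detected in iHep and in hepatocytes and not in MEF.

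Peroxisomal genes were a further group of 27. In iHep 4 rose and 1 fell against MEF, where 10.1% of all tested genes rose and 13.2% fell. The median change of the group was 0.16. Pex11a was 3.41-fold, Crot 2.93-fold, Pex2 2.30-fold and Pex7 2.18-fold higher, and the import factor Pex13 1.82-fold lower. Pex11a is a factor of peroxisome division, Crot an acyltransferase, and Pex2 and Pex7 act in peroxisome assembly and protein import. In hepatocytes 23 rose and 1 fell against MEF (median 2.06), and in iHep 0 rose and 22 fell against hepatocytes (median -2.38). The oxidation enzymes Ehhadh, Phyh and Hacl1 were 196-fold, 167-fold and 77.1-fold higher in hepatocytes than in MEF. In iHep against hepatocytes they were 90.1-fold, 39.8-fold and 112-fold lower, beside 7.86-fold (-2.97) for Acox2. These 3 were named for the largest called changes in hepatocytes against MEF. The median of the list, -2.38, was a smaller gap than that of Acox2. Differences between those gaps were not tested.

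The relatives of the members did not move as a block. Of 16 tested, 5 rose and 2 fell in iHep against MEF, with a median of -0.11, beside 10.1% and 13.2% of all tested genes. Of the 16, 4 genes (Cyp39a1, Cyp46a1, Slc10a2 and Abcb4) also stand in the enzyme and transporter lists above. Acox3, a peroxisomal oxidase of branched-chain substrates, was not called. Of the other Slc27 genes, Slc27a3 was 6.64-fold lower in iHep than in MEF, Slc27a1 and Slc27a4 were detected on all 7 arrays with no call, and Slc27a6 was detected on iHep type 1 and the MEF arrays. Cyp27b1, the vitamin D hydroxylase, was 1.71-fold lower in iHep than in MEF, and Cyp46a1, a cholesterol hydroxylase of the brain, was not called. Abcb1a, a drug export pump of the same family as Abcb11, was at least 29.96-fold higher in iHep than in MEF and its relative Abcb1b 5.08-fold higher. Slc10a6 was 10.8-fold higher in iHep, and Slc10a2, the ileal bile salt carrier, was detected on iHep type 2 and in hepatocytes, and by 1 of its 3 probes on iHep type 3. Slc10a2 was at least 134-fold higher in hepatocytes than in MEF. Slc10a3 and Slc10a7 were detected on all 7 arrays and not called in iHep against MEF, and Slc10a4 was detected on none.

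For each member detected on at least 4 arrays, the 3 genes with the most similar levels over the 7 arrays were found by Pearson's r, as a description without a test. Slc27a2 was nearest to Serpind1 (heparin cofactor II, a plasma protein of the liver; r = 0.9993), Acox2 to Dsg2, Ces2b and Cyp3a13 (r = 0.9982 to 0.9975), Cyp27a1 to Rassf7, Cobl and Yod1 (r = 0.9984 to 0.9975), and Abcb11 to Ccin, Gpihbp1 and Thpo (all r = 0.9996). Baat was nearest to Olfr796, Glyat and Pfpl (r = 0.9882 to 0.9798) and Cyp7b1 to S100g, Phospho2 and Mnt (r = 0.9960 to 0.9950). On every iHep and MEF array Olfr796 lay below the lowest detected level, so its likeness to Baat rests largely on background values. Between 122 (Baat) and 1209 (Abcb11) genes had r above 0.95. All 7 points share the 3 groups, so a gene that is high in hepatocytes alone gives a high r with any other such gene.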

How the data were processed

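Per the file headers, scanner images were processed in Agilent Feature Extraction 9.5.1.1, with background subtracted and signals at background replaced by small surrogates. The authors deposited processed, mean and background signals as intensity on a linear scale, unscaled between arrays, and 0 or 1 flags of another unit for detection, saturation and outliers. The authors' deposited value table, also intensity, served as an alternative: each column has a median of 66.4 and correlated with its scanner signal at r = 0.9988 to 0.9999, and its scaling method was not stated.

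Outlier-flagged spots were left out, repeated spots averaged, and the log2 of the deposited signal reduced by the array's 75th percentile. Of 41138 probes, the brightest stood for its gene, and 19135 of 27583 genes with a probe detected throughout at least 1 group were tested. limma 3.58.1 in R 4.3.3 (lmFit, eBayes, all groups in 1 fit, Benjamini-Hochberg, calls at an adjusted p under 0.05) was first tested on simulated levels. The hepatocyte array was assumed to vary like MEF and iHep samples. No source names separate iHep or hepatocyte preparations, so p-values cover only the spread between arrays, whose number limits precision.

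The members, the other lists and the averaging of MEF 2 and MEF 3 were chosen with earlier results of these data known. All members are described. Of each other list, up to 4 called genes with the highest changes in iHep against MEF and up to 3 in hepatocytes against MEF are named, and the detected relatives of the members. A few genes that this rule would name are not reported here. Numbers in the titles number MEF samples and iHep types, with no stated link, and were not taken to pair samples. Alternatives were 3 separate MEF samples, a replicate block, slide 1 alone, normexp (offset 50), quantile normalization, the value table, 2 filters, the mean over probes and leaving out each array. Scan day 1 alone was added after the data were seen, and a scan day is not an extraction batch.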

Additional observations from a re-analysis of the deposited data

How the results depend on the processing

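Of 357 alternative values for the change of single members, 349 kept their direction and side of the threshold, 4 lost a call, 3 gained one and 1 turned. The 357 pool all 3 comparisons. They include the comparisons of Cyp7a1, Cyp8b1, Slc27a5 and Slc10a1 with hepatocytes, whose calls follow from the filter on dim probes. The turned value was Slc27a5 in iHep against MEF within slide 1, at 0.0479 within that slide and -0.40 over all slides, neither called. The 3 members called higher in iHep became 1 when a probe had to be well above background on all 7 arrays, since Acox2 and Slc27a2 then left the test, and 3 to 4 when 1 array was left out. With that filter 3 members were higher in hepatocytes than in MEF and 3 lower in iHep than in hepatocytes, the 3 that could be tested. All genes called in iHep against MEF numbered 4459, with 7307 for the 3 MEF arrays as 3 samples, 1669 within slide 1, and 1642 to 4648 when 1 array was left out. With the number in the titles as a replicate block 5449 genes and 4 members were called, Baat among them (adjusted p = 0.0155), but nothing in the labels pairs these samples. With normexp, Acox2 and Slc27a2 changed by 5.91 and 4.54 in iHep against MEF, both called. The median change of all genes was 0.14 in hepatocytes against MEF and -0.17 in iHep against hepatocytes, and -0.002 and 0.02 with quantile normalization. Dim probes near background limit how low a level can be read.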
